A study of Homo sapiens with 4 samples.

Results

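The promoters of the proteasome subunit genes were followed through an ATAC-seq experiment, which reads open chromatin from the places where Tn5 transposase can insert. The members were all counted peaks that lie within 1 kb of an annotated start of a protein-coding gene whose symbol begins with PSMA, PSMB, PSMC, PSMD, PSME, PSMF or PSMG, with starts taken from GENCODE v44 lifted to hg19. No measured value entered this rule. It named 50 genes, of which 46 had at least 1 peak, and it gave 83 peaks of the 139872 in the whole table. For comparison, 24327 peaks lay within 1 kb of a start of any protein-coding gene, and 13300 such genes had a peak. Of the 50 genes, PSMA8 and PSMB11 had no peak within the window. PSMB8 and PSMB9 are not analysed here, because the table used here holds only 4 peaks in the whole stretch of chromosome 6 from 29 to 33 Mb around them, against 280 and 219 in the 4 Mb on either side. The immunoproteasome is therefore represented by PSMB10 alone.

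All libraries came from SEM, a human B cell precursor leukemia line with an MLL rearrangement, in which the cells of both groups expressed dCas9-KRAB, a nuclease-dead Cas9 joined to a repressor domain. One group also expressed the guide RNA sgFLT3-DE-1, directed at a distal enhancer of FLT3 that is bound by HOXA9, and the other expressed the non-target guide sgNT. Both groups had 2 libraries of 10000 cells each, and the experiment asked how specific the interference was and what it did genome-wide. Whether the 2 libraries of a group were grown as separate cultures is not stated in the labels, and the p-values below measure no more than the variation among these 4 libraries, possibly technical, although the study's supplementary notes speak of its ATAC-seq replicates as biological.

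Peak counts summed to 3670758 and 4831164 in the sgFLT3-DE-1 libraries and to 3321429 and 2683477 in the sgNT libraries. Both sgFLT3-DE-1 libraries were thus deeper than both sgNT libraries, and the part of depth in the comparisons below was not tested. The median was 9 to 17 counts per peak, so that a typical peak was measured from few reads and only large changes could be seen in it. At the peak that holds the guide's target site, chr13:28842815-28843351, normalised counts (CPM, scaled to a common library size) were 66.1 and 74.7 for sgFLT3-DE-1 and 126 and 140 for sgNT, in the direction the labels call for, although the difference did not pass the test across all peaks (edgeR log2 fold change -0.92 with SE 0.26, adjusted p = 1.0). The study, with its own test, reported the peak at the target locus as decreased at an FDR under 0.05. Over all 82558 peaks tested here, 2 passed FDR 0.05 and both were higher peaks near HBB. Without sgFLT3-DE-1 library 2 edgeR called 7 higher and 2 lower peaks, without sgNT library 2 it called 0 (680 higher and 345 lower at an unadjusted p under 0.05), and DESeq2 called 0 (43 and 220). Of 10 B-lineage precursor genes, 8 had a promoter peak, against 2 of 7 T and NK cell genes and 4 of 6 myeloid genes. Among 5 erythroid genes, 2 had a promoter peak, while HBA1, ALAS2 and KLF1 had none. The summed CPM of those with a peak was 539 and 225 for sgFLT3-DE-1 and 59.2 and 45.6 for sgNT. Nearly all of this difference lay in a single HBB peak, with 531 and 220.5 CPM against 54.8 and 42.0, and not in the erythroid genes as a set. The part of this difference in the values below was not tested. In bulk libraries, fewer cells with an open promoter and less opening per cell cannot be told apart.

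The proteasome degrades proteins marked with ubiquitin. Its core particle is a barrel of stacked rings, in which alpha subunits (PSMA genes) form the gated outer rings and beta subunits (PSMB genes) form the inner rings that hold the proteolytic sites. A regulatory particle caps the barrel, with a ring of ATPases (PSMC genes) that unfolds substrates and non-ATPase subunits (most PSMD genes) that bind ubiquitin, remove it and hold the lid together. Interferon induces replacement beta subunits, PSMB8, PSMB9 and PSMB10, which build the immunoproteasome, and the activator subunits PSME1 and PSME2. Dedicated chaperones (PSMG1 to PSMG4, PSMD5, PSMD9 and PSMD10) assemble the rings, and NFE2L1 and NFE2L2 are transcription factors known to raise proteasome genes through antioxidant response elements. PSMC3IP, which acts in meiotic recombination, and PSME3IP1 match the symbol rule without being subunits.

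Each gene with more than 1 peak was described by its main peak, the one with the most counts over all libraries. There were 20 genes with 1 peak, 18 with 2 and 8 with 3 or more, and PSMG2 had the most, 5. A peak covered an annotated start in all 46 genes, and the main peak did so in 42. The other main peaks, those of PSMA1, PSMB1, PSMD1 and PSMD13, lay upstream of the nearest start, by 10, 825, 144 and 323 bp. Covering peaks numbered 58, with a median of 39.9 CPM per kb of peak length, against 23.7 in the 18 upstream peaks and 28.0 in the 7 downstream peaks. Main peaks ranged from 179 to 856 bp in length.

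**Figure D1:**
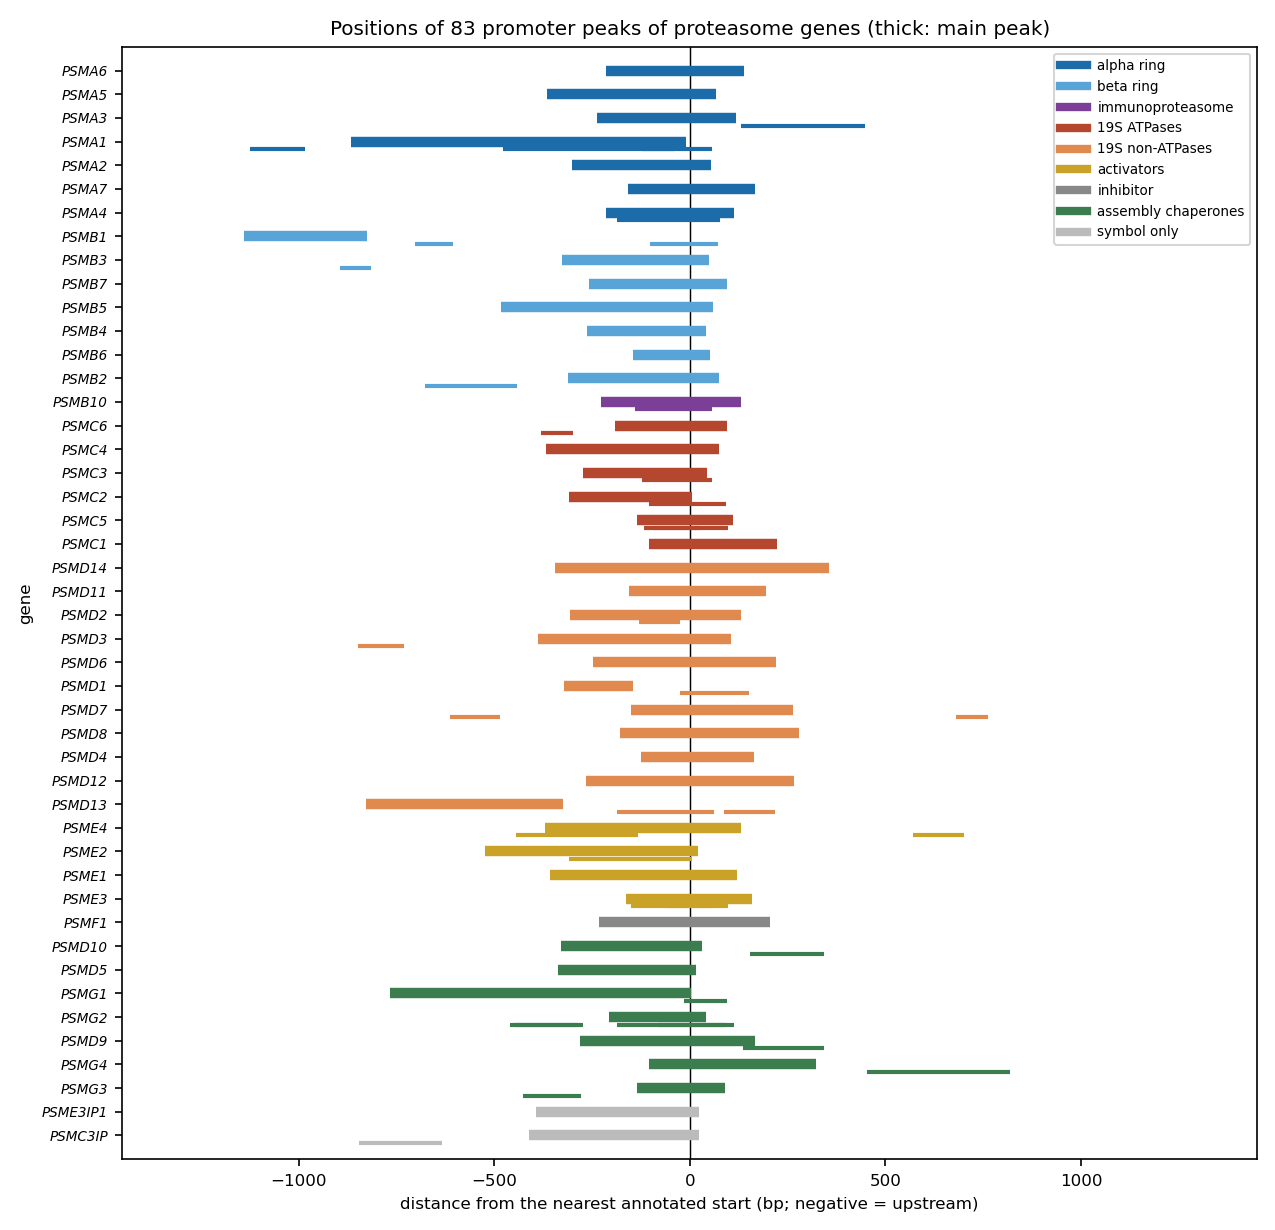
Position of each of the 83 peaks (bars) relative to the nearest annotated start of its gene, in bp along the gene's strand, with negative values upstream. Rows are the 46 genes, colours the subunit classes, thick bars the main peak and thin bars, set slightly lower, the other peaks. Most main peaks span the start line, and 4 lie wholly upstream of it.

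Some main peaks cannot be ascribed to the proteasome gene alone. In 12 of the 46 the peak also held the start of another named coding gene. PSMD10 shared its main peak with ATG4A, PSMC2 with DNAJC2, PSMA2 with MRPL32, PSME2 with RNF31, PSME3 with BECN1, PSME4 with ACYP2, PSMC5 with FTSJ3 and PSME3IP1 with RSPRY1. For PSMA1, PSMB1, PSMD13 and PSMG2 the main peak held the start of PDE3B, TBP, SIRT3 and CEP76. Each of these proteasome genes had another peak at a start of its own, but that of PSMD13 also held a start of SIRT3.

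The promoter sequences below show what lies under these peaks. They were read from GRCh37 on the strand of the gene, end at a start or lie as near to it as parts of the peak free of annotated exons allow, and carry in capitals every match, on either strand, to 10 sets of letters searched. These sets were TGACNNNGC for the antioxidant response element, GCGCANGC for nuclear respiratory factor 1 (NRF1), CCGGAAG for ETS factors, CCAAT for NF-Y, GGGCGG for SP and KLF factors, AAGATGGCG for YY1, GAAANNGAA for the interferon response, TGACGTCA for the cAMP response element (CRE), GAANNTTC for the heat shock element and TGATTTAT for HOXA9. A match is a description of letters and not evidence of a bound factor. PSMD10 had the most accessible main peak, and its stretch lies between its start and that of ATG4A on the opposite strand (chrX:107334780-107334897, minus strand). PSMB2 had the least accessible one (chr1:36107128-36107327, minus strand).
PSMD10: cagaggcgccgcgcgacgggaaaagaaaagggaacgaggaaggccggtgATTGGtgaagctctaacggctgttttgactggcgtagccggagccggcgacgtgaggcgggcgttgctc
PSMB2: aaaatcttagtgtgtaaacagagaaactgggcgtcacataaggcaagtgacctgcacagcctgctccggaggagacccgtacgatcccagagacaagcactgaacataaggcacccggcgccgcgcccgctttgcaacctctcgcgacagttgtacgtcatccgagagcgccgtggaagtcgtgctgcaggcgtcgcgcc

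The only capitals in these stretches are the reversed CCAAT letters of PSMD10. The next set shows the interferon-inducible genes, PSMB10 (chr16:67970768-67970891, minus strand), PSME1 (chr14:24605172-24605371, plus strand) and PSME2 (chr14:24616468-24616661, minus strand).
PSMB10: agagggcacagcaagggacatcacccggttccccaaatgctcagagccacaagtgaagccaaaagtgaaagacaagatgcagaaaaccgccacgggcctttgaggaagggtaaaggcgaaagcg
PSME1: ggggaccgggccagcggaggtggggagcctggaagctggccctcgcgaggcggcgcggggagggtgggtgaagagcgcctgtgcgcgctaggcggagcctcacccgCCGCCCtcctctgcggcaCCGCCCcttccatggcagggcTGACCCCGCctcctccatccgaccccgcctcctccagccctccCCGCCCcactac
PSME2: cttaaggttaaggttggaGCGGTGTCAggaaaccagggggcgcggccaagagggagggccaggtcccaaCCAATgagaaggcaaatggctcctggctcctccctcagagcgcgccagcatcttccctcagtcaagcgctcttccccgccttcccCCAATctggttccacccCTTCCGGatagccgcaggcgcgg

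PSME1 and PSME2 each held 1 set of antioxidant response letters. There were also 3 SP and KLF matches in PSME1, and 2 CCAAT and 1 ETS match in PSME2. The stretch upstream of the PSMB10 start held none of the 10 sets in full, although the PSMB10 peak it was taken from held 1 interferon response match. The PSMB10 and PSME2 stretches lie outside the main peak of their gene, and CCAAT was in 0 of 4 activator main peaks. The PSME2 peak shown also holds a start of RNF31. The last set shows 1 gene per core ring with antioxidant response letters, the alpha subunit PSMA7 (chr20:60718497-60718607, minus strand) and the beta subunit PSMB3 (chr17:36908794-36908993, plus strand), and the ATPase PSMC4 (chr19:40476872-40477071, plus strand), 1 of 12 genes with the most kinds of match in the main peak, 4.
PSMA7: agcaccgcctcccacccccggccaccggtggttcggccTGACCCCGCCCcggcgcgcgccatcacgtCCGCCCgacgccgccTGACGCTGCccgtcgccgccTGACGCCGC
PSMB3: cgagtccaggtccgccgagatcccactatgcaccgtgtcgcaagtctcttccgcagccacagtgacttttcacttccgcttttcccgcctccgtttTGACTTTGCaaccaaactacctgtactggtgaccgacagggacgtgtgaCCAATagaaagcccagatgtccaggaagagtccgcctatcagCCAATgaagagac
PSMC4: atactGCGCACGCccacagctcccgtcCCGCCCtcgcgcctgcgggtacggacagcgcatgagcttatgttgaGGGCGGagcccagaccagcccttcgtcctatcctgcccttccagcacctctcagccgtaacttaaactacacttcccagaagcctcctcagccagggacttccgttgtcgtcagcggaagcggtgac

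In PSMA7 the antioxidant response letters occurred 3 times within 111 bases, the first of them overlapping an SP and KLF match, and in PSMB3 once, upstream of 2 CCAAT matches.

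Proteasome promoters were about as accessible as those of other genes. The median main peak had 49.1 CPM per kb over the 46 genes, against 45.2 over the main peaks of all 13300 coding genes. Of the 46, 25 lay above the median of all coding genes, 9 above their upper quartile of 74.9 and 8 below their lower quartile of 27.2. Levels spread widely, from 202 CPM per kb in PSMD10, at the 97.8th percentile of coding genes, to 16.9 in PSMB2, at the 9.67th. After PSMD10 came PSMA6 with 160, PSMA5 with 116, PSMD14 with 108 and PSMA3 with 104.

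**Figure D2:**
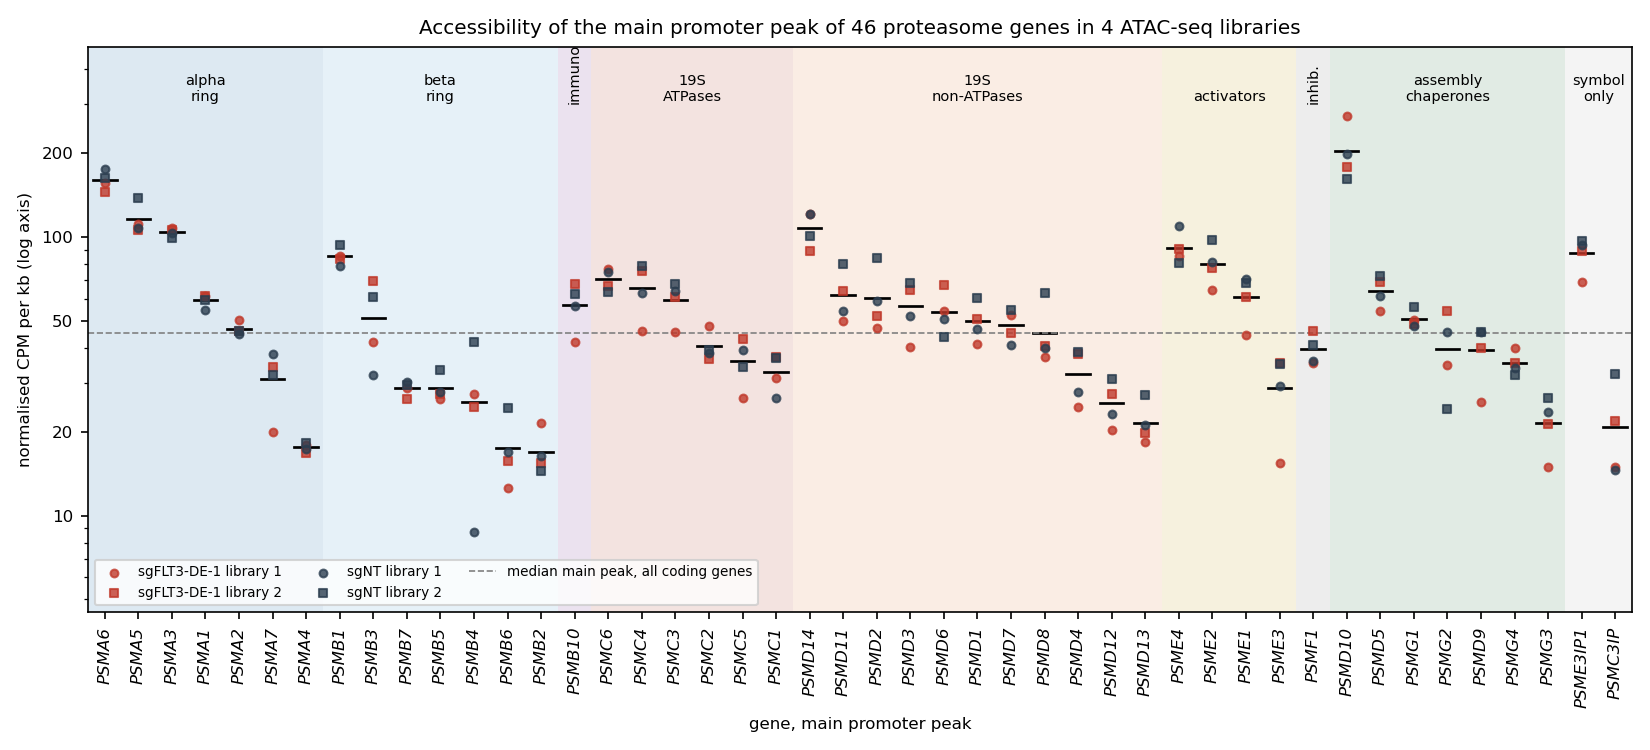
Normalised CPM per kb (log axis) of the main promoter peak of each of the 46 genes in the 4 libraries, with circles for library 1, squares for library 2, red for sgFLT3-DE-1 and dark blue for sgNT, and black bars for the mean over libraries. Shading marks the subunit classes and the dashed line the median of all coding genes, 45.2. Alpha ring genes span 17.5 to 160, and 5 of 7 beta ring genes lie below 30.

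Among the core genes, alpha ring promoters had higher levels than beta ring promoters. The median main peak was 59.2 CPM per kb over 7 alpha genes and 28.6 over 7 beta genes, a ratio of 2.07, and the ratio was 2.25 and 2.33 in the sgFLT3-DE-1 libraries and 1.97 and 1.79 in the sgNT libraries. It was 3.64 by CPM per peak, not divided by length, and 4.10 with all promoter peaks of a gene summed. With peaks at the 5′ end of the gene record alone, the medians were 52.95 CPM per kb over 6 alpha genes and 28.58 over 7 beta genes. With only 7 genes in each ring this is a description of these genes, and both ranges overlapped widely. Above the coding median were 5 of 7 alpha genes and 2 of 7 beta genes, and below the lower quartile were 1 and 3. The median GC content was 60.0% under the alpha peaks, 56.6% under the beta peaks and 66.3% under the main peaks of all coding genes, and its part in the levels was not tested.

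PSMA6 had the highest level of the alpha ring (chr14:35761310-35761661). Its main peak had 55.0 and 51.1 CPM for sgFLT3-DE-1 and 61.5 and 57.3 for sgNT. Both sgFLT3-DE-1 libraries lay below both sgNT libraries, but the log2 fold change of -0.17 was smaller than its SE of 0.25 (adjusted p = 1.0 by edgeR, as for every member peak below). PSMA4 was lowest in this ring (chr15:78832862-78833190), with 5.87 and 5.53 CPM against 5.68 and 6.01, the log2 fold change being -0.04 (SE 0.42). The libraries of the groups overlapped.

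In the beta ring, PSMB1 came first with 85.1 CPM per kb, but its main peak (chr6:170863220-170863535) sits 825 bp from the PSMB1 start and holds that of TBP. It had 26.9 and 26.3 CPM for sgFLT3-DE-1 and 24.7 and 29.6 for sgNT (log2 fold change -0.03, SE 0.26), with overlapping groups. The peak at PSMB1's own start (chr6:170862324-170862497) had 40.2 CPM per kb, with 6.49 and 5.31 CPM against 7.35 and 8.81. Both sgFLT3-DE-1 libraries were below both sgNT libraries there (log2 fold change -0.46, SE 0.39). PSMB2 came last (chr1:36107052-36107439), with 8.34 and 5.97 CPM against 6.35 and 5.61 (log2 fold change 0.23, SE 0.40). Its other peak, 442 bp upstream of the start (chr1:36107569-36107804), had 0.62 and 5.75 CPM against 3.68 and 8.41, with overlapping groups. There the log2 fold change was -0.77 (SE 0.57), the lowest estimate of the 74 tested member peaks. The genes of the 3 constitutive catalytic subunits all lay low in the order, with 28.6 CPM per kb in PSMB5, the target of the drug bortezomib, 17.4 in PSMB6 and 28.7 in PSMB7. The PSMB4 peak ran from 2.67 CPM in sgNT library 1 to 12.8 in sgNT library 2.

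PSMB10, the immunoproteasome counterpart of PSMB7, had a higher level than these 3 genes at 57.1 CPM per kb. The main peak (chr16:67969566-67969926) covers a start inside the gene and had 15.1 and 24.5 CPM for sgFLT3-DE-1 against 20.4 and 22.4 for sgNT (log2 fold change -0.09, SE 0.29). Its other peak, at the upstream start (chr16:67970694-67970891), had 52.7 CPM per kb, with 11.1 and 11.9 CPM against 8.69 and 10.0. There both sgFLT3-DE-1 libraries were above both sgNT libraries, with a log2 fold change of 0.31 that was no larger than its SE of 0.33. One gene cannot stand for the immunoproteasome class, so its level was not compared further.

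The interferon-inducible activator genes lie beside each other on chromosome 14 and had levels above the coding median. The PSME1 peak (chr14:24605014-24605494, 61.0 CPM per kb) had 21.3 and 29.2 CPM for sgFLT3-DE-1 and 34.1 and 32.8 for sgNT. Both values with the FLT3 guide were below both controls, a log2 fold change of -0.40 (SE 0.26). PSME2 had 2 peaks. The main one (chr14:24615766-24616310, 80.1 CPM per kb) had 35.2 and 42.0 CPM against 44.1 and 53.3, again without overlap and with a log2 fold change of -0.33 (SE 0.25), and the other (chr14:24616438-24616753) was denser, at 135 CPM per kb, with 35.5 and 45.8 CPM against 44.5 and 44.8 (log2 fold change -0.13, SE 0.25). PSME4, which encodes the large nuclear activator, was highest of the class by main peak (chr2:54198000-54198499, 91.4 CPM per kb), with 42.6 and 45.3 CPM against 54.5 and 40.4 (log2 fold change -0.11, SE 0.26). PSME3 was lowest (chr17:40976240-40976560, 28.7 CPM per kb), with 4.94 and 11.3 CPM against 9.36 and 11.2 (log2 fold change -0.29, SE 0.38), and sgFLT3-DE-1 library 1 stood below the other libraries. PSMF1, the inhibitor of the core particle (chr20:1099009-1099447, 39.5 CPM per kb), had 15.4 and 20.1 CPM against 15.7 and 18.0 (log2 fold change 0.09, SE 0.29).

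The 22 genes of the regulatory particle, the activators and PSMF1, grouped as regulatory subunits, had a median of 51.8 CPM per kb against 38.9 over the 14 core genes. This ratio of 1.33 was 1.27 to 1.40 in the single libraries, but it was smaller than the difference between the rings within the core. It was 1.78 with peaks at the 5′ end of the gene record alone. ATPase genes had a median of 50.04 CPM per kb and a narrow range. PSMC6 was highest with 70.5 CPM per kb (chr14:53173706-53173990), at 21.9 and 19.02 CPM for sgFLT3-DE-1 and 21.4 and 18.0 for sgNT (log2 fold change 0.05, SE 0.28). PSMC1 was lowest with 32.8 (chr14:90722766-90723093), at 10.2 and 12.2 CPM against 8.69 and 12.0 (log2 fold change 0.13, SE 0.34). The groups overlapped at both.

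Non-ATPase genes of the regulatory particle had a median of 49.8 CPM per kb and ranged further. PSMD14, the deubiquitinase of the lid, was highest with 108 (chr2:162164592-162165292), at 84.9 and 62.4 CPM for sgFLT3-DE-1 and 84.6 and 70.5 for sgNT (log2 fold change -0.08, SE 0.26). PSMD13 was lowest by main peak with 21.5 (chr11:236139-236643), and that peak holds the start of SIRT3. The peak at PSMD13's own start, which also holds a start of SIRT3, had 38.9 CPM per kb and a log2 fold change of 0.12 (SE 0.36). PSMD12, at 25.4, was the next lowest main peak. The main PSMD13 peak had 9.27 and 9.95 CPM against 10.7 and 13.6, without overlap and with a log2 fold change of -0.33 (SE 0.33). Ubiquitin receptor PSMD4 had 32.2 CPM per kb.

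Assembly chaperones ranged from PSMD10 to PSMG3, with a median of 39.7 CPM per kb. PSMD10 encodes gankyrin, which binds an ATPase during assembly. Its main peak (chrX:107334718-107335080) had 98.8 and 64.8 CPM for sgFLT3-DE-1 and 71.9 and 58.5 for sgNT (log2 fold change 0.32, SE 0.27). Library 1 was the higher one in both groups, and the groups overlapped. PSMG3 (chr7:1609577-1609804, 21.5 CPM per kb) had 3.40 and 4.86 CPM against 5.35 and 6.01, with both sgFLT3-DE-1 libraries below both sgNT libraries and a log2 fold change of -0.43 (SE 0.45). Of the genes that match by symbol, PSME3IP1 (chr16:57219911-57220327) had 28.7 and 37.1 CPM against 39.1 and 40.4 (log2 fold change -0.26, SE 0.25), and PSMC3IP (chr17:40729666-40730101) had 6.49 and 9.51 against 6.35 and 14.01 (log2 fold change -0.30, SE 0.39).

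No proteasome promoter peak passed the test between the guides. Of the 83 peaks, 74 had enough counts to be tested, and the other 9 were short peaks of at most 150 bp with at most 35 counts over all libraries. With edgeR's quasi-likelihood test, 0 of 74 passed FDR 0.05 (0.00242% of all tested peaks did) and 0 had an unadjusted p under 0.05 (1.07% of all tested peaks did on the lower side and 0.827% on the higher side). DESeq2 and limma-voom also called 0. The median SE was 0.34 log2 units over the 74 peaks and 0.29 over the 46 main peaks, so that small changes were not detectable at this depth. The larger difference at the guide's target peak (log2 fold change -0.92, SE 0.26) did not pass either.

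Most member peaks, and most promoter peaks of coding genes, had estimates on the lower side with sgFLT3-DE-1. Estimates were below 0 in 48 of 74 (64.9%) with a median log2 fold change of -0.09, and in 61.4% of the 20234 tested coding promoter peaks with a median of -0.08. Over all tested peaks the share was 48.1% and the median 0.01. Both sgFLT3-DE-1 libraries were below both sgNT libraries at 17 of 74 peaks (23.0%, against 22.2% of coding promoter peaks and 13.8% of all tested peaks). They were above both at 6 (8.11%, against 8.13% and 13.7%). Member peaks had a median GC content of 62.9% and all peaks 48.0%, and with a correction for peak GC content the share below 0 was 51.4% of the 74 and the median -0.020, against 47.8% and 0.015 over coding promoter peaks. Without sgFLT3-DE-1 library 1 the members had 53.2% and -0.021 against 57.3% and -0.064 over coding promoter peaks. Without sgFLT3-DE-1 library 2 the members had 74.3% and -0.31, and coding promoter peaks 66.0% and -0.19. Without sgNT library 1 the values were 69.2% and -0.19 against 60.1% and -0.11, and without sgNT library 2 they were 60.5% and -0.057 against 59.4% and -0.086.

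**Figure D3:**
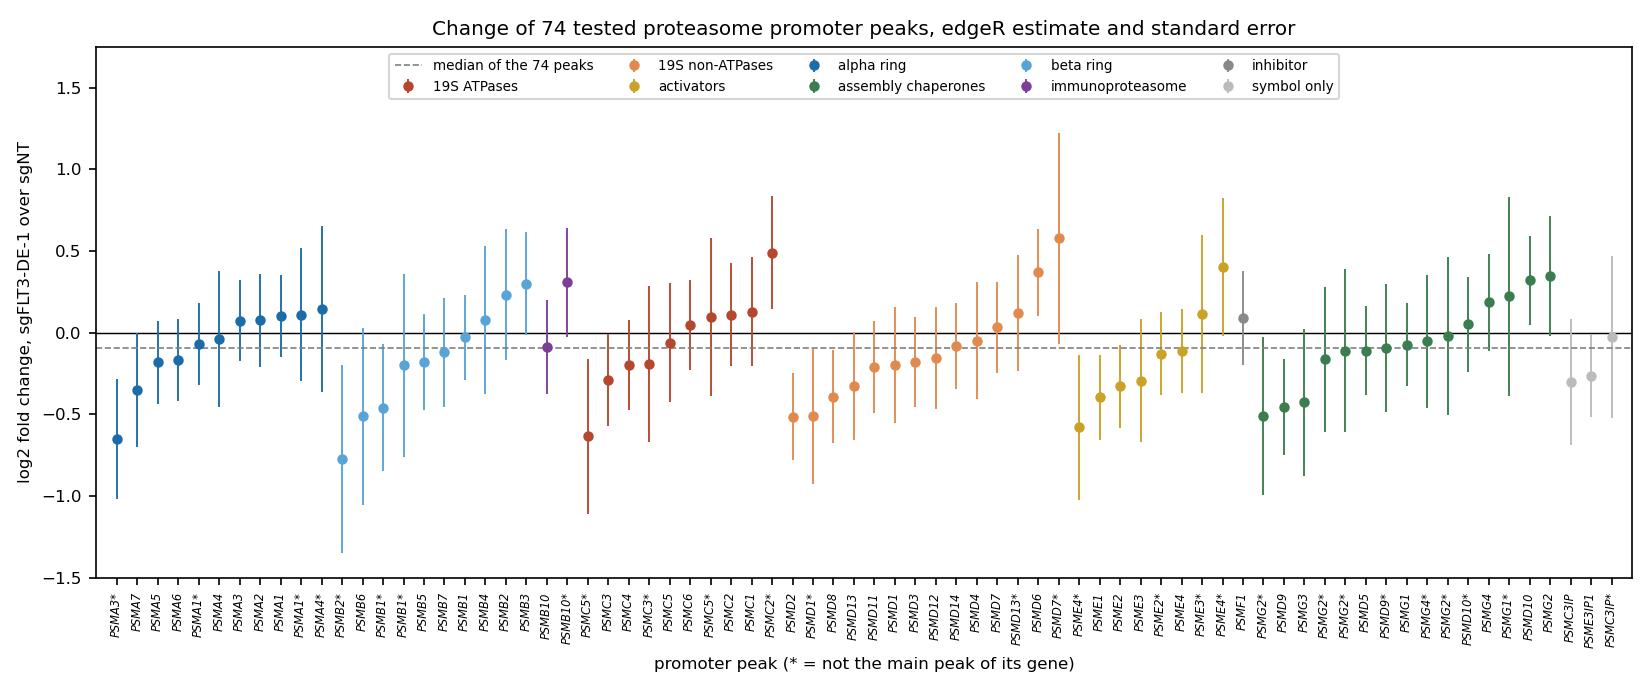
Log2 fold change of sgFLT3-DE-1 over sgNT with its standard error (vertical axis) for the 74 tested peaks, grouped and coloured by subunit class and ordered by value within each class. The dashed line is the median of -0.09, asterisks mark peaks that are not the main peak of their gene, and estimates of both signs occur in each class with more than 3 peaks.

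Estimates of both signs occurred in every class with more than 3 tested peaks. Core peaks had a median log2 fold change of -0.07 with 13 of 21 below 0, regulatory peaks -0.13 with 21 of 33, and assembly chaperone peaks -0.07 with 10 of 15. Within the core the alpha ring had -0.04 with 6 of 11 and the beta ring -0.15 with 7 of 10. Within the regulatory genes the ATPases had -0.01 with 5 of 10, the non-ATPases -0.17 with 10 of 14 and the activators -0.21 with 6 of 8. The differences between classes were not tested.

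On the lower side, the smallest p belonged to PSMD2, a scaffold subunit at the base of the regulatory particle. Its main peak (chr3:184016679-184017116) had 20.7 and 22.8 CPM for sgFLT3-DE-1 and 25.7 and 36.8 for sgNT, a log2 fold change of -0.51 (SE 0.27, unadjusted p = 0.0658 by edgeR). The groups did not overlap, and sgNT library 2 stood above the other libraries. Next came the smaller peak of PSMA3, 132 bp downstream of a start (chr14:58711754-58712069), with 4.94 and 8.62 CPM against 11.4 and 10.4 (log2 fold change -0.65, SE 0.37). The larger PSMA3 peak at the start went the other way, with 38.3 and 37.6 CPM against 36.8 and 35.2 (log2 fold change 0.07, SE 0.25), so the promoter as a whole showed no single direction. At the chaperone gene PSMD9 (chr12:122326357-122326804) there were 11.4 and 17.9 CPM against 20.4 and 20.4 (log2 fold change -0.45, SE 0.29). The lid subunit gene PSMD8 (chr19:38865025-38865483) had 17.0 and 18.6 against 18.4 and 28.8 (log2 fold change -0.39, SE 0.28), with overlapping groups. PSME1, given above, was the remaining peak among the 5 of smallest p on this side. Leaving out single libraries gave log2 fold changes of -0.77 to -0.26 for PSMD2 and -0.70 to -0.069 for PSMD8, with the values nearest 0 without sgNT library 2. For the PSMA3 peak they were -1.15 to -0.35, for PSMD9 -0.84 to -0.20 and for PSME1 -0.66 to -0.21, with the values nearest 0 without sgFLT3-DE-1 library 1. With the GC correction PSMD2 had -0.34 and PSME1 -0.23.

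On the higher side, a second peak of the ATPase gene PSMC2 (chr7:102987980-102988175) had 11.7 and 10.8 CPM for sgFLT3-DE-1 and 8.36 and 7.61 for sgNT, a log2 fold change of 0.49 (SE 0.34, unadjusted p = 0.166 by edgeR). Its groups did not overlap, whereas the main PSMC2 peak had 15.1 and 11.5 CPM against 12.0 and 12.4. The lid subunit gene PSMD6 (chr3:64008893-64009361) had 25.3 and 31.6 CPM against 23.7 and 20.4, also without overlap, and a log2 fold change of 0.37 (SE 0.27), which was 0.18 without sgFLT3-DE-1 library 2. The remaining peaks of smallest p on this side were those of PSMD10, given above, and of PSMG2 and PSMB3, where groups overlapped. PSMG2 (chr18:12702579-12702827) had 8.65 and 13.5 CPM against 11.4 and 6.01 (log2 fold change 0.35, SE 0.37). All other PSMG2 peaks had estimates below 0, of -0.02, -0.16, -0.11 and -0.51. The last of these (chr18:12702937-12703108, SE 0.49) had 2.78 and 3.98 CPM against 5.01 and 4.80, without overlap. PSMB3 (chr17:36908668-36909043) had 15.8 and 26.1 against 12.0 and 22.8 (log2 fold change 0.30, SE 0.32), with library 2 the higher one in both groups.

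Other genes of the pathway also had no peak past the test. A list of 37 genes outside the symbol rule, which held proteasome partners, ubiquitin genes, ubiquitin shuttles, regulators such as NFE2L1 and antigen-processing genes, had a promoter peak in 32. No peak of UBA1 lay in the window, and BAG6, TAP1, TAP2 and TAPBP, which lie in or beside the sparsely covered stretch of chromosome 6, are not analysed here. Of 80 tested peaks, 0 passed FDR 0.05 with edgeR in either direction. Estimates were below 0 in 54 (67.5%, against 61.4% of coding promoter peaks), with a median log2 fold change of -0.10. Of all tested peaks 1.9% had an unadjusted p under 0.05 by edgeR, and of these 80 peaks 1 did. That peak belonged to the ubiquitin shuttle gene UBQLN4 (7.41 and 9.95 CPM for sgFLT3-DE-1, 13.4 and 15.2 for sgNT, log2 fold change -0.70, SE 0.33). The next smallest p were those of a UBQLN1 peak (7.41 and 6.85 against 4.68 and 3.60, log2 fold change 0.76, SE 0.43) and of an NFE2L1 peak (1.24 and 2.65 against 3.68 and 4.805, log2 fold change -1.04, SE 0.61). The UBQLN1 and NFE2L1 estimates rested on few reads. The other UBQLN1 peaks had log2 fold changes of 0.07, -0.22 and -0.41, and the larger NFE2L1 peak had -0.33 (SE 0.27).

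The share of main peaks with each set of letters was set beside that of all coding genes. In the peaks as deposited, antioxidant response letters occurred in 18 of 46 main peaks (39.1%), against 19.4% of the 11702 distinct main peaks of all coding genes. ETS letters occurred in 18 (39.1%, against 20.4%), CCAAT in 20 (43.5%, against 37.4%), SP and KLF letters in 36 (78.3%, against 71.3%) and YY1 letters in 5 (10.9%, against 4.24%). NRF1 letters occurred in 9 of 46 (19.6%, against 24.7%). Interferon response letters were in 6 of 46 (against 7.73%), CRE letters in 1, that of PSMD3 (against 3.33%), and heat shock letters in 1, that of PSMC3IP (against 5.23%). HOXA9 letters were in 0 of 46 main peaks and in 0.359% of those of coding genes, which says only that these letters are not in these windows. Counts on 46 promoters are small, and the shares are given as a description.

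Since peaks differ in length, the shares were also taken in windows of 300 bp around the middle of each peak. Antioxidant response letters were then in 14 of 46 (30.4%, against 15.1%), among them PSMA4, PSMA7, PSMB3, PSMB6 and PSMB10 of the core and immunoproteasome, PSME1, PSME2 and PSME4 of the activators, and PSMD5, PSMD9, PSMG1 and PSMG2 of the chaperones. The shares were 28.6% of core and 22.7% of regulatory main peaks in these windows, and in the whole peaks the order was the other way, with 28.6% and 40.9%. ETS letters were in 17 (37.0%, against 16.6%), and they were in 45.5% of the 22 regulatory main peaks but 14.3% of the 14 core main peaks, that is in PSMA6 and PSMB7 alone. CCAAT occurred in 7 of 14 core and 7 of 22 regulatory main peaks. Interferon response letters were in 2 of 46 windows (4.35%, against 6.23%), those of PSMB4 and PSMG4, and the whole main peaks of PSMC4, PSMD14, PSME1 and PSME2 also held them.

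**Figure D4:**
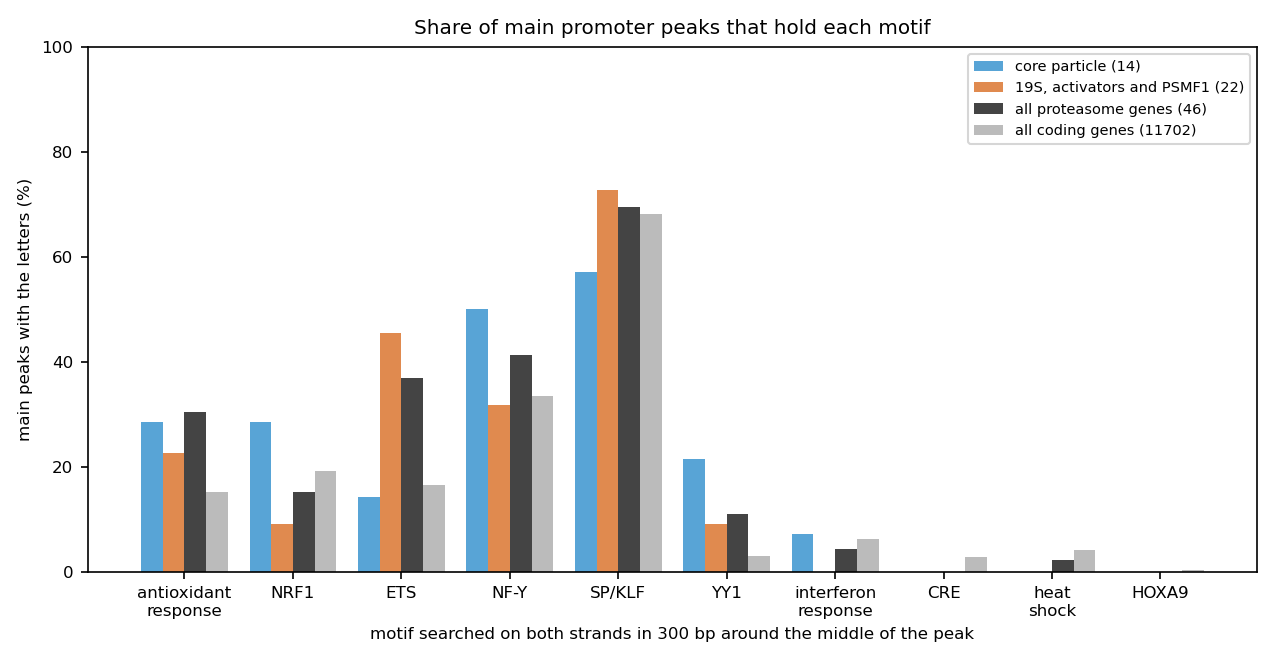
Share of main promoter peaks (percent, vertical axis from 0) that hold each set of letters on either strand within 300 bp around the middle of the peak, for 14 core genes, 22 regulatory genes, all 46 proteasome genes and the 11702 distinct main peaks of all coding genes. Antioxidant response and ETS letters are in 30.4% and 37.0% of the 46 peaks and in 15.1% and 16.6% of those of all coding genes, and SP and KLF letters in 69.6% and 68.1%.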

How the data were processed

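The authors deposited raw counts per consensus peak and the same peaks as a list of regions, on hg19 (GRCh37). Peak accessibility is measured in both groups from 2 libraries each. The sources differ on upstream tools: the extract protocol names cutadapt 1.18 and Bowtie2 2.2.9, and the submitters' processing notes name BWA and MACS2 2.1.1.20160309, with Trim Galore 0.4.4, SAMtools 1.2 and bedtools 2.24.0. Peaks were merged over both guides, per the study's supplementary notes. The counted fragments and any Tn5 shift are not given in the sources used here.

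The main test was the quasi-likelihood F test of edgeR 4.0.16 in R 4.3.3, with no term but the group and TMM scaling. Low peaks were dropped by filterByExpr (count of 10, total of 15), which left 82558. Calls used p-values adjusted by Benjamini and Hochberg's method across these peaks, at FDR 0.05. SE is |log2 fold change| divided by √F. CPM is normalised by TMM-scaled totals, and levels between genes are CPM per kb of peak. Alternatives were relative log expression and total-count scaling, no filter, DESeq2 1.42.0, a filter at a mean count of 50, limma-voom 3.58.1, GC offsets (loess span 0.3), a replicate block, each library left out, and other windows or starts. Only the main edgeR fit was also run on simulated counts, with an outcome not reported here, and the alternatives were not.

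Peaks were matched to GENCODE v44lift37 starts within 1000 bp and to the GRCh37 sequence. The members, lists, motifs and tests were chosen with earlier results of these data known. Every member gene could be named. Given in full were all peaks of PSMB10, PSME1 and PSME2, the 5 of smallest p in each direction and the highest and lowest main peak of each class, and of the other pathway genes the 3 of smallest p. Printed sequences were limited to exon-free stretches of at most 200 bases, and PSME1, PSME2, PSMA7 and PSMB3 were added to them after the data were seen.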

Additional observations from a re-analysis of the deposited data

How the results depend on the processing

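No proteasome promoter peak passed FDR 0.05 under any of the 13 alternative fits. The largest move of the median log2 fold change of the tested peaks came from leaving out single libraries, which gave -0.31 to -0.021 against -0.09. Over the other alternatives, including narrower windows, other starts and 1 peak per gene, it stayed between -0.16 (DESeq2) and -0.02 (GC correction) and moved by less than the 0.11 log2 units between replicate libraries. With the replicate block, a paired fit on the replicate number, 0 of 74 passed, the median was -0.11, 9 of 74 (12.2%) had an unadjusted p under 0.05, against 8.25% of all tested peaks, and the smallest adjusted p was 0.282 by edgeR. With the GC correction added to the block, 6 of 74 (8.11%) had an unadjusted p under 0.05 by edgeR, against 7.41% of all tested peaks. Over all tested peaks the block alone called 17 higher and 57 lower peaks. Same-numbered libraries of different guides correlated at 0.915 and 0.922 in log2 CPM over the tested peaks. Libraries of the same guide correlated at 0.875 for sgFLT3-DE-1 and 0.887 for sgNT. Deviations from the group means correlated at 0.397 between same-numbered libraries. The values thus share structure by number, which the main test does not model, but no label says what a number marks in these 2 pairs.

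The alpha to beta ratio of medians, 2.07, was 3.64 per peak instead of per kb, 4.10 with all peaks of a gene summed and 2.37 with peaks that cover a start. At the 5′ end of the gene record alone, which leaves out PSMA6, the medians were nearer each other. They were 52.95 CPM per kb over 6 alpha genes and 28.58 over 7 beta genes. The regulatory to core ratio, 1.33, was 1.25 per peak, 1.46 with a 500 bp window, 1.44 with peaks that cover a start, 1.78 at the 5′ end of the gene record and 1.26 with PSME1 and PSME2 counted with the immunoproteasome. Without single libraries these ratios were 2.02 to 2.18 and 1.27 to 1.35.

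Of 28 named peaks, 13 kept the sign of their fold change in every fit that tested them, and 320 of 353 recomputed values kept it; where the sign changed, the value was smaller than its SE. With GC correction, PSMA4 had 0.10, PSMB1 0.032, the main peak of PSMB10 0.033, PSMD14 0.048 and PSME4 0.077, and with the replicate block added 0.12, 0.025, 0.030, 0.030 and 0.097. PSMB1 had 0.0026 when peaks with a mean count below 50 were dropped, and PSMC6 had -0.017 without the filter and -0.0080 with DESeq2. Leaving out single libraries changed the sign of 14 named peaks, over ranges of -0.17 to 0.079 for PSMB1, -0.50 to 0.19 for the main peak of PSMB10, -0.016 to 0.46 for PSMB2, -0.13 to 0.79 for PSMB3, -0.11 to 0.35 for PSMC1, -0.80 to 0.33 for PSMC3IP and -0.093 to 0.17 for PSMC6. For the others the ranges were -0.020 to 0.59 for PSMD10, -0.32 to 0.12 for PSMD14, -0.34 to 0.028 for the denser peak of PSME2, -1.05 to 0.13 for PSME3, -0.33 to 0.11 for PSME4, -0.13 to 0.25 for PSMF1 and -0.043 to 0.89 for PSMG2. The cause was not tested.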
